A study of Populus tomentosa with 12 samples.

Results

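In poplar plantlets grown without iron, 110 genes stood on opposite sides in roots and shoots, above their iron-fed level in one organ and below it in the other. They were chosen from 20269 genes with enough counts in both organs, of 42950 gene IDs listed. A gene was a member when its normalised counts (CPM, counts scaled to a library total of 1e+06, with TMM factors within each organ) did not overlap between the Fe groups in roots nor in shoots. Groups were apart in this way for 21.9% of the 20269 genes in roots and 14.4% in shoots. The ratio of group means, deficient over sufficient, also had to be at least 1.5 in one organ and at most 1/1.5 in the other. The root-gain set holds 41 genes that were higher without Fe in roots and lower in shoots. The shoot-gain set holds 69 genes that were lower without Fe in roots and higher in shoots. These Fe ratios chose the members, so they are given below as a description and support nothing.

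The plants were Populus tomentosa, Chinese white poplar, multiplied in vitro on a woody plant medium with 1.5% sucrose and 1 mg/L of the auxin NAA. Growth was at 24 °C and 16 h of light per day, with a photon flux of 50 µmol per m² per s. Plantlets with shoots of about 10 cm went into medium holding 100 µM Fe, called Fe-sufficient, or 0 µM, called Fe-deficient, and RNA of roots and of shoots was sequenced. Each of the 4 groups, root and shoot at each Fe supply, has 3 libraries called biological replicates, and no genotype or strain difference is labelled. The sources used here do not give the length of the Fe treatment, the plants that went into a library, or whether roots and shoots came from the same plants.

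Iron is a cofactor of heme and iron-sulfur proteins. Roots of dicots such as poplar acquire it by acidifying the soil around them, reducing ferric iron at the root surface and importing the ferrous form. Iron then moves in the xylem and phloem as complexes with small molecules, and in leaves chloroplasts hold much of it. Roots are therefore the organ of supply and shoots the main organ of demand, and signals on iron status pass between them. None of the 42950 IDs in the files matched the gene table of P. tomentosa (60139 genes), and no file pairs them with names. Members are thus described by their values and not by function, and no lists of iron uptake, photosynthesis or other genes could be applied to them.

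Root libraries held 8663523 to 10886552 reads in genes and shoot libraries 5360670 to 6149779. Reads in no gene made up 1.25% to 1.41% of assignable reads in roots and 49.5% to 50.0% in shoots. Root and shoot libraries also carry different series of titles, so organ and library series cannot be told apart in any comparison of levels between them. The direction of every shoot change rests on the Fe label, as shoot titles (CK with Fe, WT without) are not explained.

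The opposite pattern was one of 4 combinations under the same thresholds. Without Fe, 815 genes (4.02% of the 20269) were higher in roots and 845 (4.17%) lower, and in shoots 641 (3.16%) were higher and 565 (2.79%) lower. The root-gain set made up 5.03% of the genes higher in roots and 7.26% of those lower in shoots. The shoot-gain set made up 8.17% of the genes lower in roots and 10.8% of those higher in shoots. A further 44 genes were higher in both organs and 43 lower in both, so all members together make up 0.543% of genes and the shoot-gain set was the most numerous of the 4 combinations. With library totals alone in place of TMM the root-gain set held 16 genes and the shoot-gain set 100, with 84 genes higher and 17 lower in both organs. TMM factors ran from 0.889 to 0.960 for shoots with Fe and from 1.055 to 1.101 for those without.

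**Figure D1:**
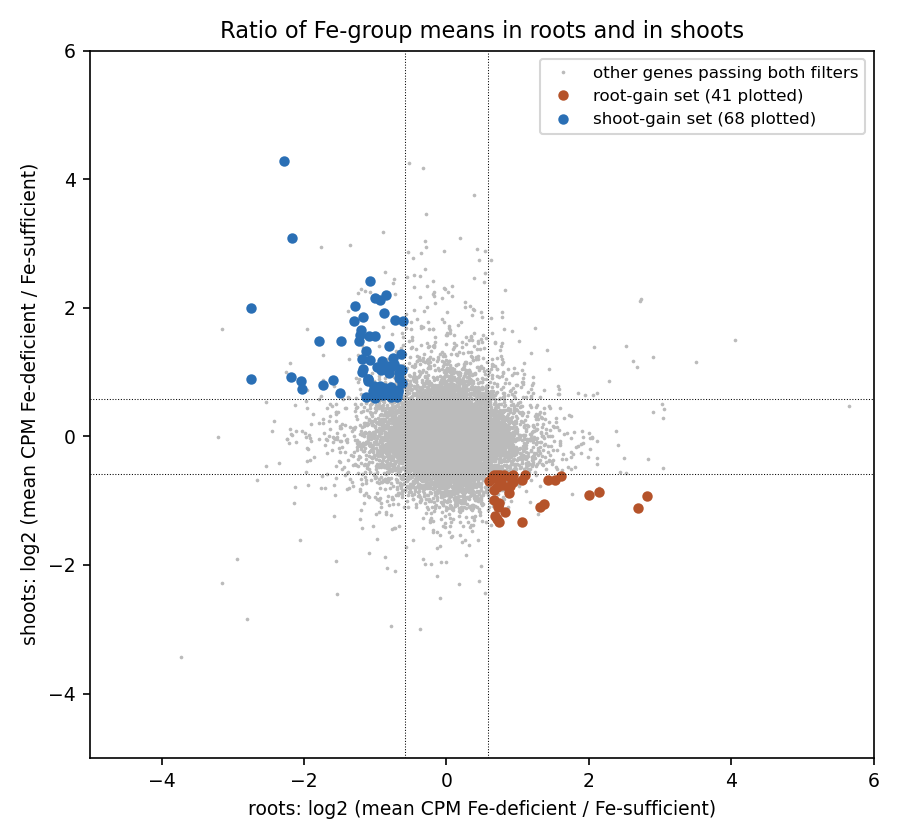
Each point is a gene passing the filter in both organs, with the log2 ratio of mean CPM (Fe-deficient over Fe-sufficient) in roots on the horizontal axis and in shoots on the vertical axis. Dotted lines mark a ratio of 1.5 either way. Members lie in the lower right (41 root-gain genes) and upper left (68 shoot-gain genes), and 1 member without counts in Fe-sufficient shoots cannot be drawn. Grey points in the same corners had overlapping Fe groups in at least 1 organ.

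Most members differed by modest amounts. In the root-gain set the ratio in roots was 1.51 to 7.01 (median 1.76) and that in shoots 0.396 to 0.661 (median 0.589). In the shoot-gain set the ratio in roots was 0.150 to 0.657 (median 0.5001). In shoots it was 1.52 to 19.4 among the 68 members with counts in Fe-sufficient shoots, and the median over all 69 was 2.07. A ratio of 2 or more in both organs was reached by 4 root-gain and 20 shoot-gain genes. In the root-gain set the most extreme ratios lay in roots, and in the shoot-gain set they lay in shoots.

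The highest ranked root-gain gene, by the smaller of its 2 absolute log2 ratios, was Potri.019G088200. In roots it had 0.213, 1.73 and 1.84 CPM with Fe and 10.4, 8.75 and 5.14 CPM without. In shoots it had 13.2, 11.2 and 28.9 CPM with Fe and 11.2, 6.14 and 7.33 CPM without. The root groups were well apart, at 1.26 ± 0.910 and 8.11 ± 2.71 CPM (SD, n = 3 each), while in shoots Fe-sufficient replicate 2 and Fe-deficient replicate 1 nearly met. The ratio of means was 6.43 in roots and 0.462 in shoots. Fe-sufficient roots held 2, 17 and 18 counts of this gene, so in roots it passed the filter on low counts only with its Fe-deficient libraries. Its root ratio is thus a description only. Without Fe the means were 8.11 CPM in roots and 8.21 ± 2.63 CPM in shoots (SD, n = 3 each). With Fe the shoot mean was 17.8 ± 9.66 CPM (SD, n = 3). These CPM were scaled within each organ, so root and shoot values are not on a common scale. With TMM factors from all 12 libraries, its mean over both Fe supplies was 4.09 CPM in roots and 14.9 CPM in shoots.

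The next root-gain gene was Potri.008G100500. Its shoot level was tight, at 37.2, 36.2 and 36.7 CPM with Fe and 18.8, 17.2 and 15.4 CPM without. In roots it had 6.27, 5.39 and 3.69 CPM with Fe and 6.69, 19.0 and 12.5 CPM without. The shoot groups were wide apart, with a ratio of means of 0.467. In roots Fe-deficient replicate 1 lay barely above the Fe-sufficient libraries, and the ratio of 2.49 came from the other 2 replicates.

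The highest ranked shoot-gain gene, Potri.T178900, was close to absent from Fe-sufficient shoots. It had 0, 0 and 5 counts there and 45, 13 and 64 counts in Fe-deficient shoots, or 6.98, 1.99 and 9.99 CPM. In roots it had 14.0, 6.61 and 7.88 CPM with Fe and 2.70, 1.48 and 1.68 CPM without. The ratio of means was 0.206 in roots and 19.4 in shoots. On the scales set within each organ, its mean with Fe was higher in roots. Without Fe it was higher in shoots (6.32 ± 4.04 CPM) than in roots (1.95 ± 0.654 CPM, SD, n = 3 each). The size in shoots hangs on the Fe-sufficient library with 5 counts, replicate 3: the fitted log2 fold change was 4.25 with all libraries, 8.26 without that one, which leaves no counts in the group, and 3.68 without replicate 2.

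Potri.019G130500 showed the same exchange at lower levels. In roots it had 4.15, 3.05 and 3.89 CPM with Fe and 1.41, 0.341 and 0.709 CPM without, a ratio of means of 0.222. In shoots it had 0, 1 and 7 counts with Fe and 41, 13 and 31 counts without, a ratio of mean CPM of 8.53. The groups did not overlap in either organ, but the shoot gap between 7 and 13 counts is small. Its fitted log2 fold change in shoots was 3.08, and 5.30 without Fe-sufficient replicate 3. One member, Potri.001G226500, had no counts in any Fe-sufficient shoot library and 106 over the Fe-deficient ones, at least 29.4-fold higher against a floor of 3 counts over the group. It was singled out after its values were seen, and its root ratio was 0.351. In shoots this gene, Potri.T178900 and Potri.019G130500 passed the filter on low counts only through the Fe-deficient group, where they are high. Their shoot ratios and calls are therefore a description only. Other members with low counts in 1 Fe group may have passed in the same way, and how many did was not counted.

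**Figure D2:**
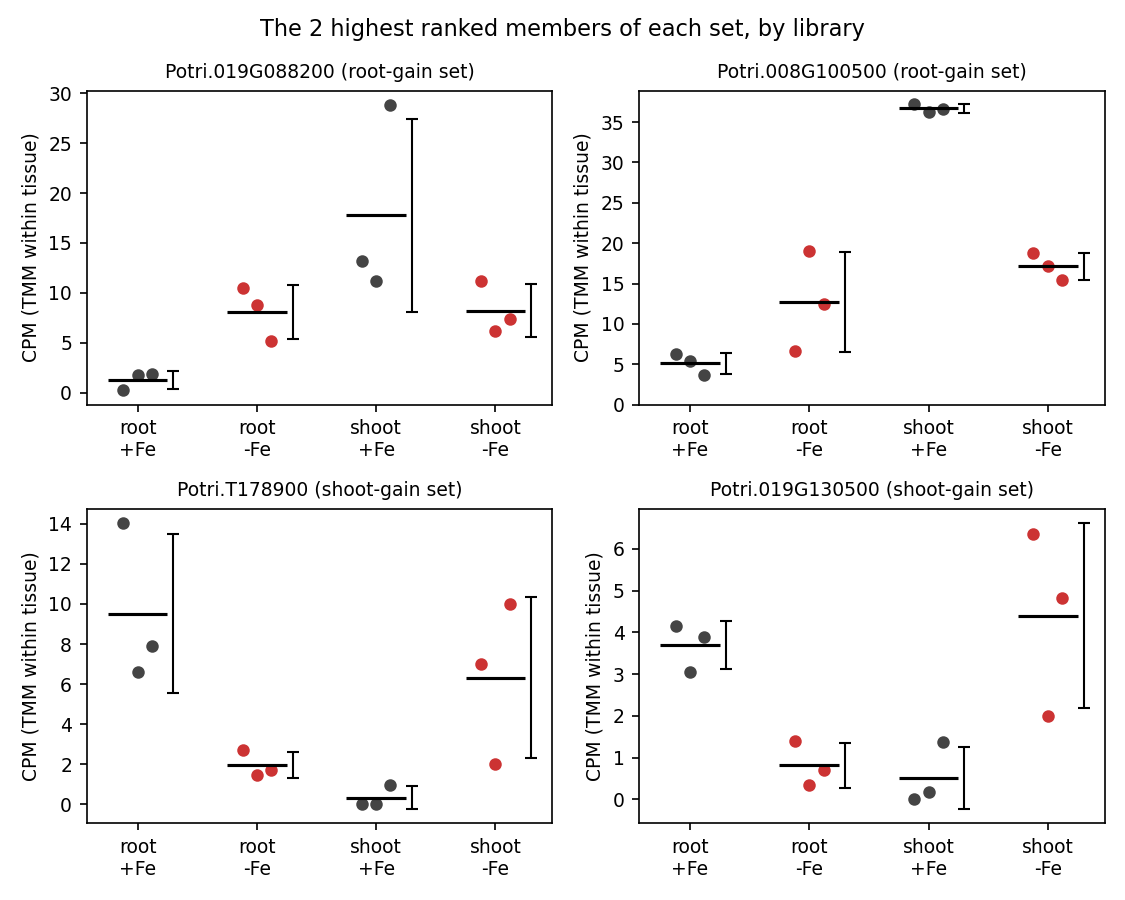
CPM (TMM within the organ, linear axis) of the 2 highest ranked members of each set in all 12 libraries. Points are libraries, horizontal lines are means and bars to the right are SDs of 3 libraries. The upper genes had their highest mean in Fe-sufficient shoots and their lowest in Fe-sufficient roots. The lower genes were highest in Fe-sufficient roots or Fe-deficient shoots. Roots and shoots were scaled separately, so the order between organs holds on these scales only.

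The distance between the groups was often small. Taking the nearest libraries of the groups, the root-gain set had a median gap of 1.23-fold in roots and 1.22-fold in shoots. For the shoot-gain set the median gaps were 1.23-fold and 1.30-fold. Gaps under 1.1-fold were found for 7 and 9 root-gain genes in roots and shoots, and for 21 and 13 shoot-gain genes. Low counts were most frequent for the shoot-gain set in shoots. There 23 of its 69 genes had fewer than 10 counts in at least 1 library, against 3 of the 41 root-gain genes in the same libraries. At the edge of the rule, the last root-gain member had ratios of 1.51 in roots and 0.616 in shoots, and the nearest gene outside had 1.50 (log2 0.584, under the threshold of 0.585) and 0.573. The last shoot-gain member had 0.498 and 1.52, and the nearest gene outside 0.667 and 1.84. Short of the ratio threshold in at least 1 organ, another 188 genes with groups apart in both organs were higher in roots and lower in shoots, and 124 the reverse.

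The 3 Fe-deficient libraries of each organ gave similar set medians. The rule required each to lie on the same side of the Fe-sufficient ones, so their shared direction is no evidence of agreement. The median root-gain gene, on a log2 scale relative to its Fe-sufficient mean with 0.5 CPM added, stood at 0.71, 0.91 and 0.73 in the Fe-deficient roots and at -0.79, -0.80 and -0.64 in the Fe-deficient shoots. The median shoot-gain gene stood at -0.88, -1.06 and -0.93 in Fe-deficient roots and at 1.07, 0.94 and 0.91 in Fe-deficient shoots. Over all genes passing both filters these medians lay between -0.02 and 0.00. Fe-deficient root replicate 2 held the lowest of the 6 root values for 32 of the 69 shoot-gain genes, and Fe-deficient shoot replicate 1 the highest shoot value for 33.

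**Figure D3:**
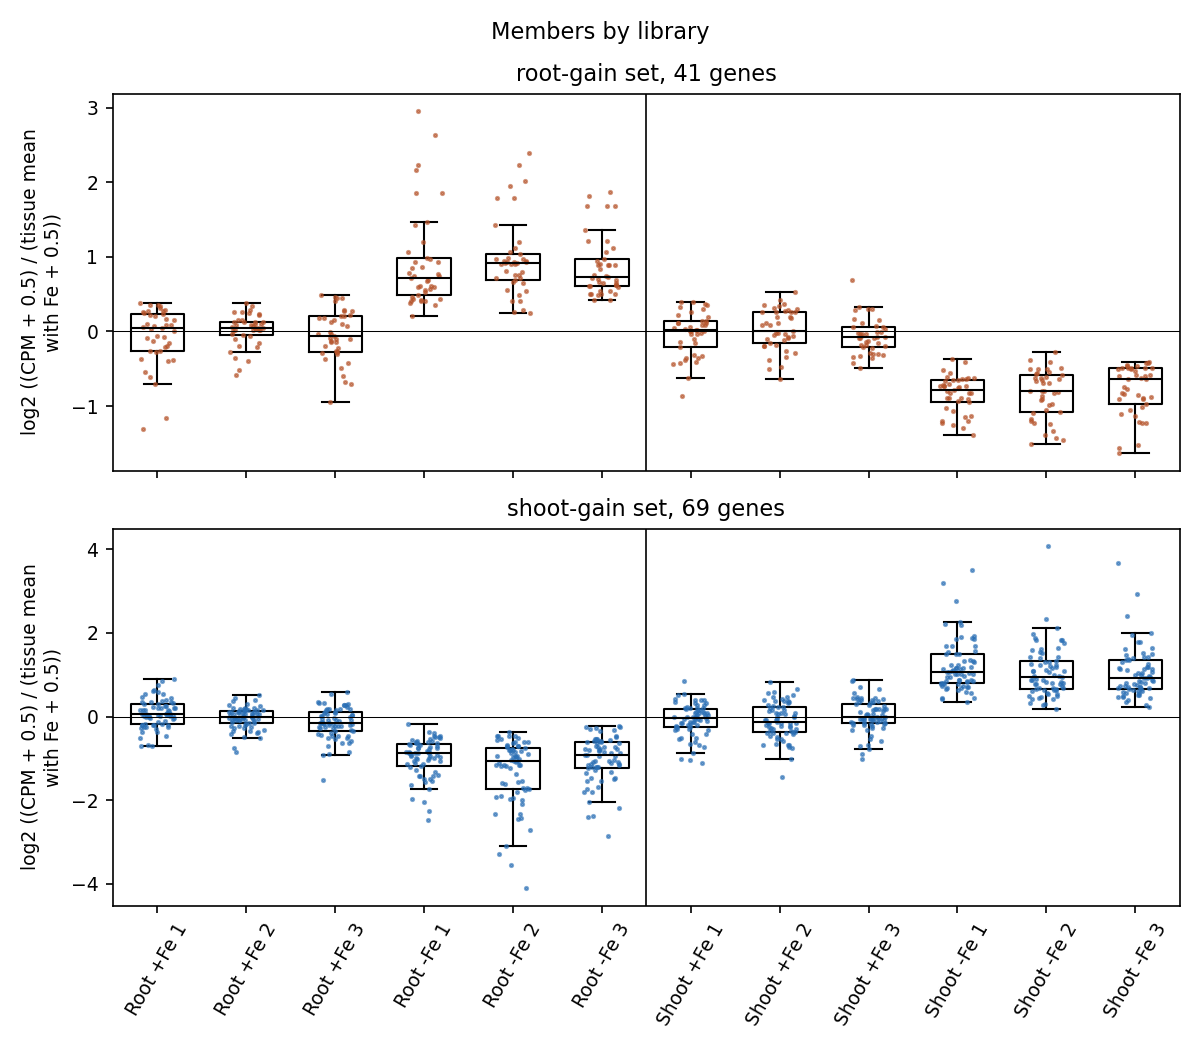
Members by library, as log2 of CPM plus 0.5 over the Fe-sufficient mean of the same organ plus 0.5. Points are genes, and boxes show the median and quartiles with whiskers to 1.5 times the box height. In the upper panel (41 root-gain genes) Fe-deficient roots lie above 0 and Fe-deficient shoots below it, and in the lower panel (69 shoot-gain genes) the reverse holds, which is how the sets were chosen.

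Few members passed a test across all genes within an organ. In roots, 3 root-gain genes passed as higher without Fe, with an adjusted p under 0.05 by edgeR, where 0.193% of all tested genes did. There 4 shoot-gain genes passed as lower, against 0.37% of all tested genes. In shoots, 8 root-gain genes passed as lower (0.531% of all tested genes) and 17 shoot-gain genes as higher (0.632%). Both organs passed for 2 root-gain and 0 shoot-gain genes by edgeR, while DESeq2 gave 12 and 20, and 33 and 58 had an unadjusted p under 0.05 by edgeR in both. The difference between the root and shoot responses passed for 28 root-gain genes as positive (0.655% of all tested genes) and for 41 shoot-gain genes as negative (0.595%). Because the rule used these contrasts, nothing is read from the shares. When Fe-sufficient replicate 1, 2 or 3 was left out, the 7 root calls by edgeR became 1, 0 and 5. Leaving out Fe-deficient replicate 1, 2 or 3 gave 0, 0 and 2. In these 6 runs 78 to 90 members had an unadjusted p under 0.05, and with all libraries DESeq2 called 58. The 25 shoot calls became 14 and 40 when Fe-sufficient replicate 1 or 2 was left out, and 6, 6 and 11 when Fe-deficient replicate 1, 2 or 3 was. The 69 calls for the difference became 41 without root Fe-sufficient replicate 2, and 43 and 39 when replicate 1 of the Fe-sufficient or Fe-deficient shoots was dropped.

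The sets differed in the organ in which they were abundant, which the rule did not use directly. Levels did enter it through the filter on low counts in each organ. Ratios of genes with low counts also vary more, and the genes set beside the members below were not matched for level. The part of this in the shares was not tested. Levels were compared between the 6 root and 6 shoot libraries, averaged over Fe supplies, with edgeR's quasi-likelihood test on all 12 libraries (adjusted p under 0.05), in which 73.5% of all 25046 tested genes passed. Of the 41 root-gain genes, 35 were lower in roots (85.4%), 5 were higher and 1 did not pass. The difference was at least 4-fold for 31 of these 35 genes and at least 16-fold for 18. Among the 20269 genes passing both filters, 36.4% were lower in roots, 10.2% at least 4-fold and 2.41% at least 16-fold. The median log2 difference, root minus shoot, was -3.82 for the root-gain set and -0.01 for all genes passing both filters. For the median root-gain gene the root level was 7.70% of its own shoot level.

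Potri.008G100500 had a log2 difference of -2.04 ± 0.21 (SE; adjusted p by edgeR 8.78e-07), and Potri.019G088200 one of -2.31 ± 0.37 (SE; adjusted p by edgeR 6.66e-05). The shoot-gain set leaned less to an organ. Of its 69 genes, 31 were higher in roots (44.9%, against 34.6% of genes passing both filters), 17 were lower and 21 did not pass, with a median log2 difference of 0.44. Its highest ranked genes did not differ past the threshold between organs, at 1.19 ± 0.57 for Potri.T178900 and -0.18 ± 0.55 for Potri.019G130500 (SE; adjusted p by edgeR 0.0769 and 0.774). Of the 44 genes higher in both organs without Fe, 25 were lower in roots than in shoots (56.8%) and 17 higher. At least 4-fold lower were 38.6% and at least 16-fold 15.9%, against 75.6% and 43.9% of the root-gain set. High shoot levels beyond the shares of all genes were thus not particular to the root-gain set, though more frequent there. Of the 43 lower in both organs, 19 were lower in roots (44.2%, with 14.0% at least 4-fold) and 19 higher.

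At each Fe supply taken alone, the organ levels are given as a description, since the rule's own ratios set how they shift and these comparisons were added after the data were seen. With Fe, 36 root-gain genes were lower in roots and 2 higher, and without Fe 31 were lower and 6 higher (edgeR, adjusted p under 0.05). With Fe, 51 shoot-gain genes were higher in roots and 7 lower, and without Fe 14 were higher and 34 lower. For levels averaged over Fe supplies, leaving out any 1 library gave 35 or 36 root-gain genes lower in roots and 31 to 33 shoot-gain genes higher.

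**Figure D4:**
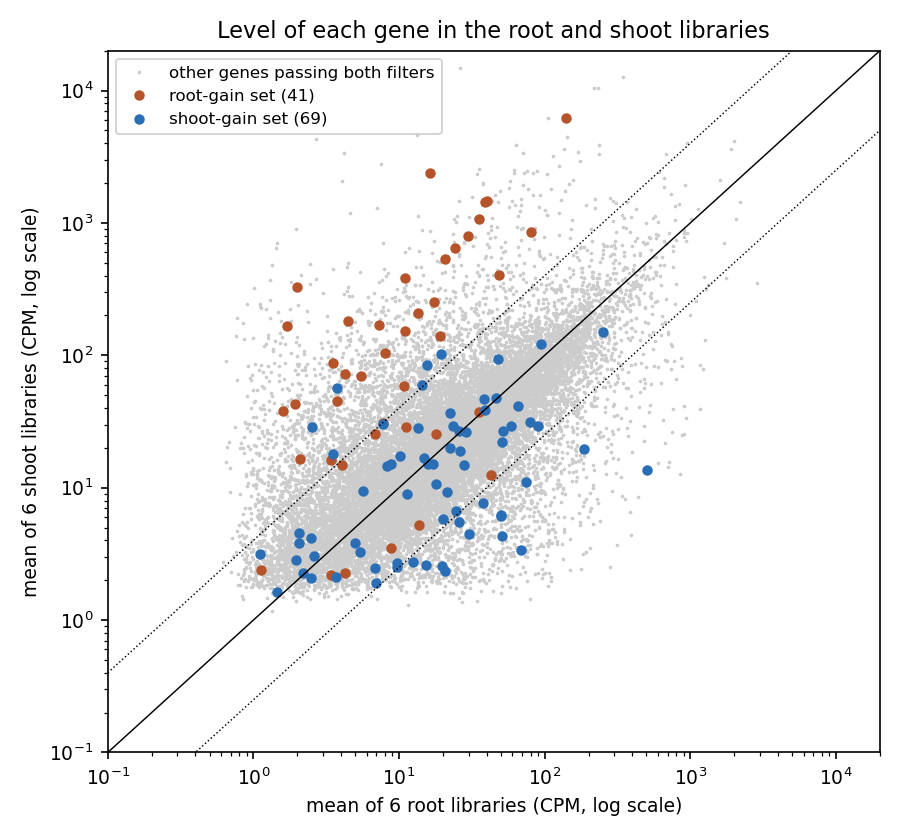
Mean CPM of each gene over the 6 root libraries (horizontal) and the 6 shoot libraries (vertical), both on log axes, with TMM factors from all 12 libraries. The solid line marks equal levels and dotted lines a 4-fold difference. Most of the 41 root-gain genes lie above the upper dotted line, while the 69 shoot-gain genes spread around the line of equality.

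Other genes typical of shoots moved in the same directions as the root-gain set. A class of 525 shoot-specific genes, members left out, was defined on CPM of library totals, without TMM factors. Each has a shoot mean of 10 CPM or more. That mean is also no less than 20 times the sum of the root mean and 0.5 CPM. The same definition with the organs exchanged gave 422 root-specific genes. In root libraries the shoot-specific class took 0.375%, 0.320% and 0.314% of gene counts with Fe and 0.391%, 0.417% and 0.449% without. In shoot libraries it took 20.9%, 19.1% and 17.0% with Fe and 14.3%, 13.9% and 14.3% without. The class was therefore higher in every Fe-deficient root library and lower in every Fe-deficient shoot library than in those with Fe, as the root-gain genes were, 9 of which meet its definition. In all 6 root libraries 58 of the 525 genes were at 0 counts.

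Of the 525 genes, 210 passed the filter in both organs. The ratio of Fe-group means was above 1 for 152 of these in roots and for 27 in shoots, with median log2 ratios of 0.30 and -0.37, against medians within 0.01 of 0 over all genes passing both filters. At the rule's thresholds 49 (23.3%) were higher without Fe in roots and 44 (21.0%) lower in shoots, where 4.02% and 2.79% of all genes were. Root levels are low in this class by definition. Some of the 210 may therefore have passed the root filter only through the Fe group where they were higher. How many did was not counted, and the genes set beside them were not matched for level, so these shares are a description only.

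The share of counts in the root-specific class did not separate the Fe groups. In shoots it took 0.0628%, 0.0949% and 0.102% of gene counts with Fe and 0.167%, 0.0830% and 0.130% without, so the groups overlapped. In roots it took 4.51%, 4.56% and 4.60% with Fe and 4.94%, 4.88% and 3.87% without, also overlapping. Of 153 root-specific genes passing both filters, the ratio of Fe-group means was above 1 for 115 in shoots and for 71 in roots, with median log2 ratios of 0.40 and -0.06. Among them 16 (10.5%) were higher without Fe in shoots and 18 (11.8%) lower in roots at the rule's thresholds, where 3.16% and 4.17% of all genes were. The same limit holds here for the shoot filter, as shoot levels are low in this class by definition. In all 6 shoot libraries 16 of the 422 genes were at 0 counts, and 2 shoot-gain genes meet the definition. The part of these classes in the levels of the members was not tested, and in whole organs fewer cells of a type and less RNA per cell cannot be told apart.

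**Figure D5:**
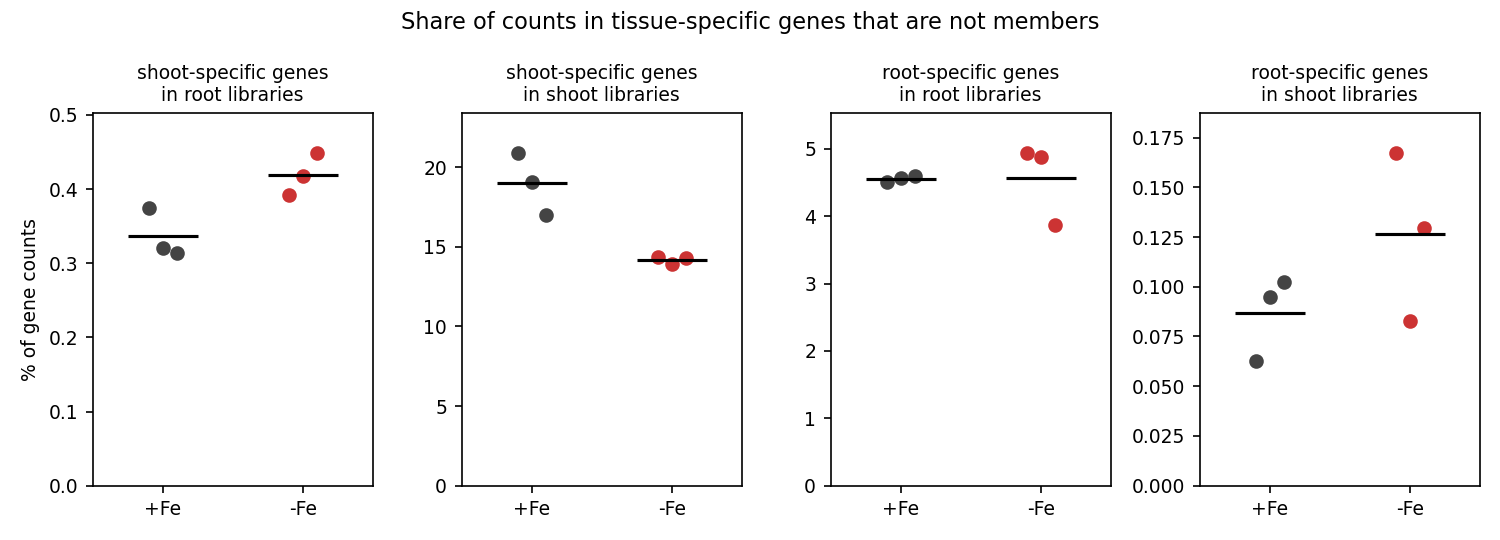
Share of gene counts, in percent on axes from 0, of 525 shoot-specific and 422 root-specific genes, members left out, in each library. Points are libraries and lines are means of 3. The Fe groups do not overlap for shoot-specific genes, which are higher without Fe in roots (0.391% to 0.449% against 0.314% to 0.375%) and lower in shoots, and they overlap for root-specific genes.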

How the data were processed

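The authors deposited 1 table per library of unnormalised counts, the reads assigned to each gene ID. Tools named in the submitters' processing notes are edgeR 3.16.5, HTSeq 2.2.1, HISAT2 2.0.5 and Trimmomatic 0.36. The sources used here do not give settings, genome build, annotation or strand, so overlapping or near-identical genes could not be set apart. The 5 rows of reads without a gene (58.3% to 64.0% of reads listed in roots, 72.6% to 73.1% in shoots) stayed out.

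Members were found on CPM with TMM after filterByExpr (minimum count 10) by Fe label within each tissue, and a limit of 300 members was not reached. Tests were made with edgeR 4.0.16 in R 4.3.3 (robust quasi-likelihood), with Benjamini-Hochberg adjustment over all tested genes: 6 libraries per tissue for Fe, and 1 fit of 12 libraries and 4 groups for the difference of responses and for root against shoot. SE is the absolute log2 fold change over the square root of F. P-values set the difference between groups against the spread between these libraries, estimated with information shared across genes. Code was tested on simulated counts. Genes were named as the 2 members of each set with the largest smaller absolute log2 ratio, and Potri.001G226500 was added. The rule, lists and tissue classes were chosen with earlier results of these data known. Alternatives were DESeq2 1.42.0, RLE factors, no TMM, other filters and folds, a replicate block in shoots and leaving out each library.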

Additional observations from a re-analysis of the deposited data

Results flagged for a closer look

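Named members were marked because edgeR's fit of all 12 libraries separated their root and shoot responses to Fe deficiency. The rule chose genes with opposite ratios in the same libraries, so this restates the choice and is given as values only. The log2 fold change in roots less that in shoots was 3.77 for Potri.019G088200 and 2.42 for Potri.008G100500 in the root-gain set. In the shoot-gain set it was -6.56 for Potri.T178900, -5.26 for Potri.019G130500 and -10.11 for Potri.001G226500. The last value rests on the fit's prior count, because that gene had no counts in Fe-sufficient shoots. Within roots alone none of these 5 genes passed by edgeR (adjusted p by edgeR 0.0557 to 0.294, each with an unadjusted p under 0.05), while DESeq2 called 4 of them. In 1 fit of all 12 libraries Potri.019G088200 and Potri.008G100500 passed in roots (adjusted p by edgeR 0.0274 and 0.0417), and the shoot-gain ones did not. Within shoots alone Potri.008G100500 and Potri.001G226500 passed (adjusted p by edgeR 0.00846 and 0.00481), and the others did not (0.0837 to 0.304). Potri.008G100500 did not pass without Fe-deficient replicate 2 or 3 (adjusted p by edgeR 0.0585 and 0.0575) or in 1 fit of all 12 libraries (0.125). Potri.T178900 passed in that fit (adjusted p by edgeR 0.0430) and with a replicate block (0.0356). Potri.019G130500 passed without Fe-sufficient replicate 3 (adjusted p by edgeR 0.0331) and with DESeq2 (adjusted p by DESeq2 0.00805).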

How the results depend on the processing

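With a threshold of 2-fold the sets held 4 and 20 genes, and with library totals alone the root-gain set held 16. Leaving out a library makes groups of 2 and 3, which overlap less easily, and gave 49 to 66 root-gain genes (66 when Fe-sufficient shoot replicate 3 was dropped and 63 for Fe-deficient shoot replicate 2) and 75 to 104 shoot-gain genes (104 for Fe-deficient shoot replicate 2). Of the members, 58 were called in roots by DESeq2, 15 with no filter on low counts and 32 in 1 fit of all libraries, against 7. In shoots 49 were called by DESeq2 and 40 with no filter, against 25. Leaving out a library gave 0 to 5 root calls by edgeR (at least 78 members at an unadjusted p under 0.05), 6 to 40 shoot calls and 39 to 61 calls for the difference; the cause was not tested. With title numbers of the shoots as a replicate block, edgeR called 14 members, 12 of them among the 25. Same-numbered shoot libraries did not deviate together (r across genes of -0.169, -0.0127 and 0.127), so the numbers were not taken as pairs.

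Between organs, 3 root-gain genes were at least 2-fold higher in roots, and 2 were higher with Fe-sufficient groups alone, against 5. Of the shoot-gain genes, 11 were lower in roots with library totals alone, 9 at 2-fold or more, and 7 and 34 in Fe-sufficient and Fe-deficient groups alone, against 17, while 51 and 14 were higher in these groups, against 31. RLE factors changed no set or call count by more than 1.5 times, and no named member changed direction within an organ under any alternative run, though the sizes of the shoot-gain ones in shoots moved with single libraries (3.68 to 8.26 on the log2 scale for Potri.T178900 and 2.51 to 5.30 for Potri.019G130500). Depth limits low members most in shoots.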
